A study of Saccharomyces cerevisiae S288C and Saccharomyces paradoxus NRRL Y-17217 and Saccharomyces mikatae IFO 1815 with 8 samples.

Results

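Expression of orthologous genes was compared between S. bayanus and S. cerevisiae, the most distant pair among the 4 yeast species of the study, in RNA-Seq libraries from 2 cultures of each species. The S. bayanus cultures were of strain MCYC623, which the sample labels place under the organism name Saccharomyces uvarum CLIB 533. The S. cerevisiae cultures were of S288c wt (FY4xFY5), the diploid made by mating a MATa and a MATalpha strain, so that each species is represented by 1 strain background. Both strains are described as prototrophic diploids, the labels name no engineered allele and no treatment, and cells were collected in exponential growth with glucose. The labels name complete media, whereas the Methods of the study describe a synthetic medium without amino acids. The supplement of the study likewise states growth in minimal media, so the labels differ from both descriptions. The replicate 1 cultures were made on one day and the replicate 2 cultures on a different day, so each day holds 1 library of each species, and the replicate number is called the day below.

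Genes were kept where the gene was listed once in S. cerevisiae and once in S. bayanus, where the coding length in S. bayanus was 90 to 110% of that in S. cerevisiae, and where at least 90% of the aligned reads of the gene had a single position in each of the 4 libraries. These limits kept 3723 of the 6599 S. cerevisiae genes listed. Of the others, 1548 had no S. bayanus gene listed, 692 differed in length, 291 were listed more than once in S. bayanus and 345 shared too many reads with other places. Among the genes kept, 1561 had the same coding length in both species, and 2888 had only reads with a single position. A gene did not have to be measured in S. paradoxus or S. mikatae, and 2739 of the genes kept met the same limits in all 4 species.

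S. cerevisiae and S. bayanus both ferment glucose in preference to respiring it, and both repress genes for other carbon sources while glucose lasts. Much of yeast metabolism is set by regulons, groups of genes that share 1 transcription factor: Gal4 for galactose, Aft1 for iron, Pho4 for phosphate, Zap1 for zinc, Ino2 and Ino4 for phospholipids, and Rpn4 for the proteasome. A difference between species can therefore lie in 1 gene of a regulon or in many of its genes together, and the genes are described below by the group to which they belong.

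The genes kept held 2486782 and 3526397 reads in the S. bayanus libraries and 2927577 and 7220936 reads in the S. cerevisiae libraries, with a median of 221 and 232 reads per gene in S. bayanus and 152 and 417 in S. cerevisiae. The 10 genes with the most reads took 16.3 and 17.8% of these reads in S. bayanus and 26.3 and 21.3% in S. cerevisiae. Levels are given below as CPM, the reads of a gene per 1000000 reads of the library after scaling by TMM factors, which were 1.33 and 1.00 in S. bayanus and 0.819 and 0.914 in S. cerevisiae. CPM are not corrected for length, so they compare libraries for 1 gene and not 1 gene with another. In RNA from whole cultures, fewer cells with a transcript and less of it per cell cannot be told apart.

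Of the genes kept, 3632 had at least 10 reads in at least 2 libraries and were tested with edgeR's quasi-likelihood test, with terms for species and day. At a Benjamini-Hochberg adjusted p under 0.05, 100 genes (2.75%) were higher in S. bayanus and 96 (2.64%) were lower, and such genes are called higher or lower below. All 196 called genes moved the same way on both days and had species ranges that did not overlap, a pattern that 996 tested genes (27.4%) showed with S. bayanus above and 1034 (28.5%) with S. bayanus below. The smallest change among called genes was 1.96 on the log2 scale of S. bayanus over S. cerevisiae, close to 4-fold, and of 366 tested genes with a change over 2 on that scale 193 were called. The median log2 fold change of all tested genes was 0.00. An unadjusted p under 0.05 was reached by 1073 genes, 539 higher (14.8%) and 534 lower (14.7%). Counts for gene lists below are to be read beside these shares of all tested genes.

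Most calls stood close to the threshold: 157 of the 196 had an adjusted p from 0.045 to 0.05, and the lowest adjusted p of the edgeR test was 0.0254. With 2 libraries per species and the day in the model, 1 degree of freedom was left among samples. In a fit of species alone, the calls were 38 higher and 13 lower without S. bayanus replicate 1, 42 and 29 without S. bayanus replicate 2, 246 and 266 without S. cerevisiae replicate 1, and 154 and 153 without S. cerevisiae replicate 2, against 239 and 259 with all 4 libraries in that fit. A species left with 1 library is assumed in these fits to vary like the other species, whose 2 libraries alone give the spread. Scaled by library totals in place of TMM, the median of all genes lay at 0.42 and the calls were 462 higher and 173 lower, so that directions below are relative to the bulk of the genes. With the length in S. bayanus held to 95 to 105% of that in S. cerevisiae, 19 higher and 13 lower calls were left among 3504 genes. Most of the calls lost there were of genes still tested. An offset for length over 3632 genes kept 98 higher and 96 lower calls.

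The log2 ratios of the species on day 1 and on day 2 had a Pearson correlation of 0.668 across the 3632 tested genes, which share the 4 libraries and are not independent replicates. The ratios of a gene on the 2 days differed by a median of 0.72, about the same as the median absolute log2 fold change of 0.74. Called genes formed 2 arms along the line of equal ratios, with 18 genes past 4 in the higher arm and 17 past -4 in the lower arm.

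**Figure D1:**
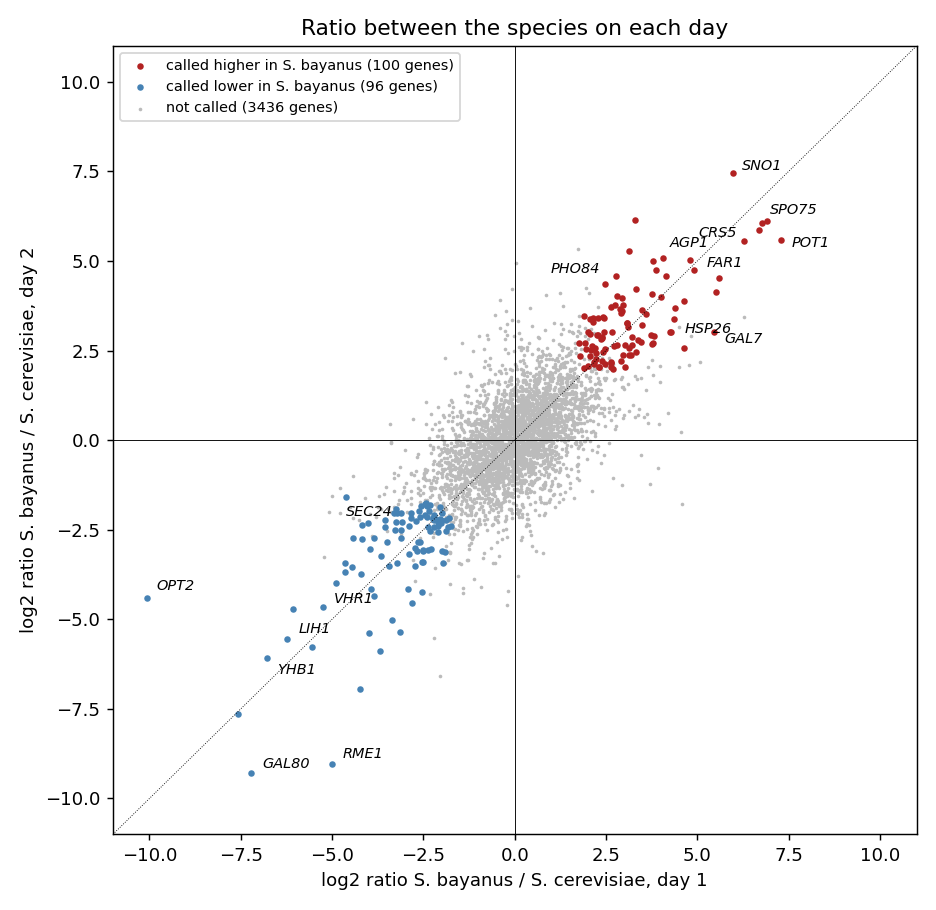
Log2 ratio of S. bayanus over S. cerevisiae for each of the 3632 tested genes on day 1 (x axis) and day 2 (y axis), with 0.5 added to both counts of a pair where 1 of them was 0. Red points are the 100 genes called higher in S. bayanus, blue points the 96 called lower and grey points the genes not called, and the dotted line marks equal ratios. GAL80 lies at -7.22 and -9.29 and SNO1 at 5.98 and 7.44.

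Apart from genes without a read in S. cerevisiae, the highest ratios belonged to genes of vitamin B6, spores, metals and fat metabolism. SNO1, which encodes a subunit of the enzyme complex that makes vitamin B6, had 106 and 211 CPM in S. bayanus, against 1.67 and 1.21 CPM in S. cerevisiae (log2 fold change 6.81 ± 0.62 (SE), edgeR adjusted p = 0.0254). SPO75, a gene needed to form spores, had 91.6 and 101 CPM in S. bayanus, against 0.835 and 1.52 CPM in S. cerevisiae (log2 fold change 6.27 ± 0.57 (SE), edgeR adjusted p = 0.0254). CRS5, the gene of a copper-binding metallothionein, had 995 and 1219 CPM in S. bayanus, against 9.6 and 20.9 CPM in S. cerevisiae (log2 fold change 6.25 ± 0.55 (SE), edgeR adjusted p = 0.0254). In each of the 3 genes both S. bayanus libraries lay far above both S. cerevisiae libraries, with a much smaller spread within either species.

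Fat and peroxisome genes came next. POT1, the thiolase of the last step of beta-oxidation, had 64.8 and 43.6 CPM in S. bayanus, against 0.417 and 0.91 CPM in S. cerevisiae (log2 fold change 6.06 ± 0.66 (SE), edgeR adjusted p = 0.0289). CRC1, which carries carnitine esters into mitochondria, had 104 and 119.5 CPM in S. bayanus, against 3.75 and 3.64 CPM in S. cerevisiae with a log2 fold change of 4.91. PEX18, which helps import proteins into peroxisomes, had 56.6 and 37.1 CPM in S. bayanus, against 1.25 and 2.12 CPM in S. cerevisiae with a log2 fold change of 4.64. Both S. bayanus libraries stood far above both S. cerevisiae libraries in each gene, and S. cerevisiae had at most 24 reads for any of the 3 in a library.

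Further genes among the highest encode proteins of other kinds. FAR1, the inhibitor that arrests the cell cycle in response to pheromone, had 50 and 28.3 CPM in S. bayanus, against 1.67 and 1.06 CPM in S. cerevisiae (log2 fold change 4.78 ± 0.62 (SE), edgeR adjusted p = 0.0394). AGP1, an amino acid permease of broad range, had 201 and 405 CPM in S. bayanus, against 12.1 and 12 CPM in S. cerevisiae (log2 fold change 4.58 ± 0.50 (SE), edgeR adjusted p = 0.0289). POA1, a phosphatase of ADP-ribose phosphate, had a log2 fold change of 4.42, and GRX8, a glutaredoxin, one of 4.65. SUE1, which takes part in the breakdown of unstable cytochrome c, had 36.8 and 28.6 CPM in S. bayanus, against 2.5 and 1.06 CPM in S. cerevisiae. YPL113C, which is named by its locus only, had 103 and 178 CPM in S. bayanus, against 5.84 and 7.43 CPM in S. cerevisiae. The log2 ratio of GRX8 was 3.28 on day 1 and 6.15 on day 2, so that S. bayanus was higher on both days by unequal amounts.

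Low counts set limits for 3 more. FRE5, a putative ferric reductase, had 82 and 18 reads in S. bayanus, against 0 and 0 reads in S. cerevisiae, and SFC1, the mitochondrial carrier of succinate and fumarate, had 53 and 12 reads in S. bayanus, against 0 and 0 reads in S. cerevisiae. With a floor of 3 reads for the S. cerevisiae libraries together, FRE5 was at least 43.8-fold higher and SFC1 at least 28.4-fold higher in S. bayanus. YJL218W had 33 and 37 reads in S. bayanus, against 0 and 3 reads in S. cerevisiae, a ratio of 30.6 with an exact 95% interval for counting error of 10.1 to 152.

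At the other end, GAL80 was lowest. GAL80 (YML051W, coding sequence on chromosome XIII from 171594 to 172901 in build sacCer2) encodes the inhibitor that keeps Gal4 inactive without galactose. It had 5 and 2 reads in S. bayanus, against 538 and 2341 reads in S. cerevisiae, or 1.51 and 0.566 CPM in S. bayanus, against 224 and 355 CPM in S. cerevisiae (log2 fold change -8.07 ± 0.69 (SE), edgeR adjusted p = 0.0254). YHB1 (YGR234W, coding sequence on chromosome VII from 959908 to 961107) encodes a flavohemoglobin that detoxifies nitric oxide and had 2.11 and 2.55 CPM in S. bayanus, against 234 and 172 CPM in S. cerevisiae (log2 fold change -6.41 ± 0.55 (SE), edgeR adjusted p = 0.0254). RME1 (YGR044C, coding sequence on chromosome VII from 582994 to 583896), which represses meiosis in haploid cells, had 6 and 0 reads in S. bayanus, against 139 and 490 reads in S. cerevisiae (log2 fold change -6.29 ± 1.02 (SE), edgeR adjusted p = 0.046). Both S. bayanus libraries held fewer than 10 reads for each of these genes, and both S. cerevisiae libraries more than 130.

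LIH1, a homologue of lipases, had 2.71 and 2.83 CPM in S. bayanus, against 203 and 132 CPM in S. cerevisiae (log2 fold change -5.86 ± 0.54 (SE), edgeR adjusted p = 0.0254). OPT2, an oligopeptide transporter, had 0 and 1.13 CPM in S. bayanus, against 161 and 23.8 CPM in S. cerevisiae, with a wide gap between the S. cerevisiae libraries (log2 fold change -6.69, edgeR adjusted p = 0.0487). VHR1, a transcription factor of biotin uptake genes, had 11.2 and 38.5 CPM in S. bayanus, against 420.2 and 970.2 CPM in S. cerevisiae (log2 fold change -4.93 ± 0.47 (SE), edgeR adjusted p = 0.0263). STP4, a zinc finger protein, had 32.2 and 44.7 CPM in S. bayanus, against 952 and 706 CPM in S. cerevisiae. SGE1, a drug exporter of the plasma membrane, had 9.94 and 6.23 CPM in S. bayanus, against 159 and 259 CPM in S. cerevisiae. VHR1 varied within both species more than STP4 or SGE1 did, and in all of these genes the species stayed apart. ECM15 had 1.21 and 0.85 CPM in S. bayanus, against 56.8 and 46.7 CPM in S. cerevisiae. YOR062C had 12.1 and 6.51 CPM in S. bayanus, against 123 and 209.7 CPM in S. cerevisiae.

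Almost no S. bayanus reads were found for some of the low genes. ECM13 had 0 and 1 reads in S. bayanus, against 69 and 373 reads in S. cerevisiae, a ratio of 337 in favour of S. cerevisiae with an exact 95% counting interval of 60.1 to 13300. DON1, a protein of the membrane that surrounds the young spore, had 0 and 1 reads in S. bayanus, against 24 and 49 reads in S. cerevisiae, a ratio of 55.6 in favour of S. cerevisiae with an interval of 9.67 to 2230. ICS2 had 2 and 0 reads in S. bayanus, against 27 and 114 reads in S. cerevisiae, a ratio of 53.7 in favour of S. cerevisiae with an interval of 14.6 to 448. ADY4, a spindle pole protein of meiosis, had 3 and 1 reads in S. bayanus, against 28 and 110 reads in S. cerevisiae (log2 fold change -4.52). Intervals and floors cover counting error only.

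**Figure D2:**
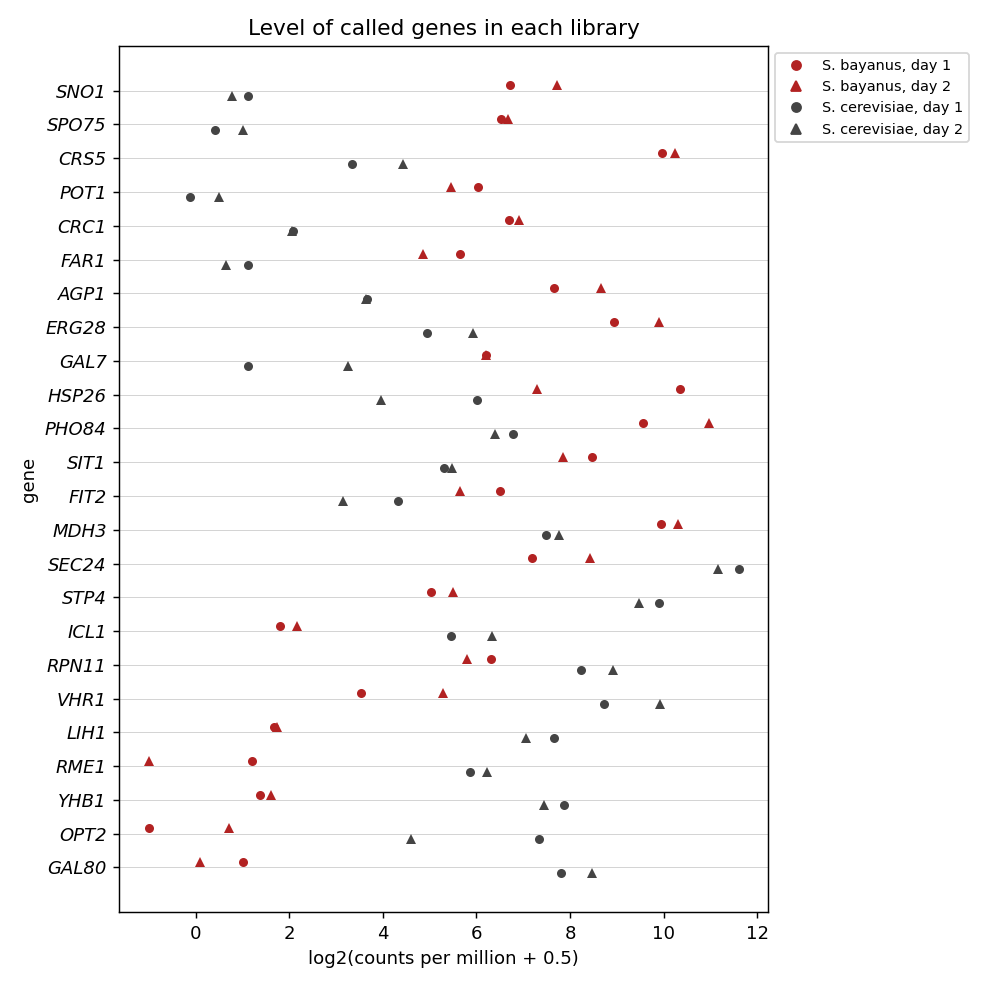
Level of 24 called genes as log2 of CPM plus 0.5 (x axis), 1 gene per line. Red marks are S. bayanus and dark marks S. cerevisiae, circles day 1 and triangles day 2. The marks of the species do not overlap in any of the genes, and the upper 14 genes are higher in S. bayanus.

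Galactose genes moved apart from each other. The inhibitor gene GAL80 was called lower, and the structural gene GAL7, which encodes the uridylyltransferase of the pathway, was called higher with 73.2 and 73.3 CPM in S. bayanus, against 1.67 and 9.1 CPM in S. cerevisiae (log2 fold change 3.95 ± 0.71 (SE), edgeR adjusted p = 0.046). Of the other structural genes, GAL10, the epimerase, had 51.2 and 41.1 CPM in S. bayanus, against 3.75 and 8.79 CPM in S. cerevisiae (log2 fold change 2.90). The galactokinase gene GAL1 had 37.4 and 35.4 CPM in S. bayanus, against 35.5 and 18.6 CPM in S. cerevisiae (log2 fold change 0.50). Neither passed the test, and the species overlapped only in GAL1. GAL3, the galactose sensor that relieves Gal80, had a log2 fold change of 2.43 and did not pass either. The activator gene GAL4 had 74.1 and 62 CPM in S. bayanus, against 46.3 and 101 CPM in S. cerevisiae, a log2 fold change of -0.02. PGM1, a phosphoglucomutase, was called lower with 93.4 and 157 CPM in S. bayanus, against 469 and 545 CPM in S. cerevisiae. In all, 1 of the 9 tested genes was called higher and 2 lower, with a median log2 fold change of 0.03.

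Gal4 binds CGG and CCG with 11 bases of any kind between them. In S. cerevisiae, windows of 300 bases that leave out the 60 bases next to the coding start hold a match on either strand in 1.87% of 6001 genes, and in 4 of the 9 tested galactose genes, GAL3, GAL7, GAL10 and GAL80. The tested genes with a match had a median log2 fold change of 2.66 and those without one of -0.02. Letters outside a window were not searched, so here and below genes without a match can still be targets of the factor. The windows of the gene called lower and of the gene called higher are shown because both hold such a match, printed in capitals, and because their ratios lie at opposite ends. They are RefSeq sequence of build R64, at chrXIII:171234-171533 on the plus strand for GAL80 and chrII:275588-275887 on the minus strand for GAL7, written 5′ to 3′ towards the gene. The S. bayanus sequence was not analysed here, and a match is a description of letters and not of binding.
GAL80: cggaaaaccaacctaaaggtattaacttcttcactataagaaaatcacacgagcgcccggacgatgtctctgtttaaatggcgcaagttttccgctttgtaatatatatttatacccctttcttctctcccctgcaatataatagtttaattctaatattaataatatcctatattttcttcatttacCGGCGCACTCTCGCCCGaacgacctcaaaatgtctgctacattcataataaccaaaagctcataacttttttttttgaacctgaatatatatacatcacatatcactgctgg
GAL7: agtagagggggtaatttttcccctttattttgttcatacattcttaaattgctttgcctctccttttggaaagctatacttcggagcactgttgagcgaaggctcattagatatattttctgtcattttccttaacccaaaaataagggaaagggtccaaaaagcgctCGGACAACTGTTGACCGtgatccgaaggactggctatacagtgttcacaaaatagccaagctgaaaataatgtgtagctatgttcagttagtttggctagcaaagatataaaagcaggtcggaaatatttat

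Genes of iron and copper uptake gave 4 calls among 24 tested genes, all higher in S. bayanus, with a median log2 fold change of 0.08 over the list. Besides FRE5 and CRS5, these were SIT1 and FIT2. SIT1, a transporter of the siderophore ferrioxamine B, had 352 and 228 CPM in S. bayanus, against 38.8 and 44 CPM in S. cerevisiae (log2 fold change 2.77 ± 0.43 (SE), edgeR adjusted p = 0.046). FIT2, a cell wall protein that retains siderophore iron, had 90.4 and 49.8 CPM in S. bayanus, against 19.6 and 8.34 CPM in S. cerevisiae (log2 fold change 2.39 ± 0.45 (SE), edgeR adjusted p = 0.0487). The species did not overlap in either gene. On the other side of the list, FRE7, a ferric and cupric reductase, had 2.11 and 1.42 CPM in S. bayanus, against 10 and 9.25 CPM in S. cerevisiae (log2 fold change -2.45), and CTR3, a copper transporter, had a log2 fold change of -2.27, without passing the test. The high-affinity iron permease gene FTR1 had 569 and 864 CPM in S. bayanus, against 535 and 374 CPM in S. cerevisiae (log2 fold change 0.65). The haem oxygenase gene HMX1 had 229.6 and 126 CPM in S. bayanus, against 18.4 and 90.8 CPM in S. cerevisiae (log2 fold change 2.01) and did not pass either. An unadjusted p under 0.05 was reached by 6 members that were higher and 5 that were lower.

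Aft1 binds the letters TGCACCC, which the windows hold on either strand in 1.40% of genes and in 12 of 23 tested members of the list with a window. FRE5, FIT2 and SIT1 hold it, CRS5 had no window, and 3 of the 12 members with a match were called higher against none of the 11 without one, where medians were 0.36 with a match and -0.60 without. The windows of these 3 called genes are shown with the matches in capitals, at chrXV:1061204-1061503 for FRE5, chrXV:1059171-1059470 for FIT2 and chrV:27297-27596 for SIT1, all on the plus strand of R64. FIT2 has 4 matches, FRE5 has 2 and SIT1 has 1.
FRE5: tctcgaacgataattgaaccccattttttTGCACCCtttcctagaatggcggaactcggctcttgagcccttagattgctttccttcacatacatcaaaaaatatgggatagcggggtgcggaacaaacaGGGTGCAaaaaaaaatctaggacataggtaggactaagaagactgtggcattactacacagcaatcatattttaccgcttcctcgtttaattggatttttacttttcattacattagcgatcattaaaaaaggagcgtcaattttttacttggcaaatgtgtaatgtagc
FIT2: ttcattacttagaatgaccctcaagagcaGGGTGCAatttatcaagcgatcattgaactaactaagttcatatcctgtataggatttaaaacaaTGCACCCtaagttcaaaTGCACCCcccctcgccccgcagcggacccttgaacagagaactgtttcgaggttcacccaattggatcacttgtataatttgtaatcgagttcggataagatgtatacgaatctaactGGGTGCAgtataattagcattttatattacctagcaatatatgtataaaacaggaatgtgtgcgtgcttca
SIT1: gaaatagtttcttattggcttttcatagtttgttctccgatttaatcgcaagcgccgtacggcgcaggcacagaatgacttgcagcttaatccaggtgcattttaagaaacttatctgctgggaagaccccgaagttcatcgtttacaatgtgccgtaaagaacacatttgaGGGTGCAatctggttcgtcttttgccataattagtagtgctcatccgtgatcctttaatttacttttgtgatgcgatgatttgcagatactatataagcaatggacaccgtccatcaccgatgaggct

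Phosphate and zinc genes were called in both directions. PHO84, the high-affinity phosphate transporter, had 748 and 1998 CPM in S. bayanus, against 110.2 and 84.1 CPM in S. cerevisiae (log2 fold change 3.67 ± 0.64 (SE), edgeR adjusted p = 0.046). PHO89, the phosphate transporter that uses sodium, was called higher as well with 39.8 and 30.9 CPM in S. bayanus, against 2.92 and 4.85 CPM in S. cerevisiae. GIT1, which takes up glycerophosphoinositol, was called lower with 13.6 and 9.63 CPM in S. bayanus, against 118 and 39.3 CPM in S. cerevisiae. The list of phosphate genes gave 2 higher and 1 lower of 14, with a median of 0.16. Its low-affinity transporters PHO87 and PHO90 had log2 fold changes of 0.50 and -0.22 and did not pass. Of 12 zinc genes, ZPS1, a cell wall protein induced by zinc shortage, was called higher with 196 and 290.5 CPM in S. bayanus, against 25.4 and 24.1 CPM in S. cerevisiae (log2 fold change 3.27 ± 0.43 (SE), edgeR adjusted p = 0.0396). IZH1, a membrane protein of zinc homeostasis, was called lower with 60.3 and 152 CPM in S. bayanus, against 303 and 875 CPM in S. cerevisiae. In neither gene did the species overlap. The high-affinity zinc transporter ZRT1 had 2656 and 2437 CPM in S. bayanus, against 627 and 284 CPM in S. cerevisiae (log2 fold change 2.59), which did not pass. Matches to CACGTG stood in 7 of 14 phosphate genes, where medians were 0.36 with and -0.03 without, against 4.17% of all windows. A match to the Zap1 letters ACCTT and AAGGT with 1 base of any kind between them stood in 1 of 12 zinc genes, ZRT1, and in 0.117% of all windows.

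Vitamin genes had the highest median of the lists with at least 9 tested genes, 1.04, although SNO1 was the only called gene of 10. THI6, of thiamine synthesis, had 273 and 497 CPM in S. bayanus, against 91.4 and 126 CPM in S. cerevisiae. BIO4, of biotin synthesis, had 153 and 206 CPM in S. bayanus, against 77.6 and 84.1 CPM in S. cerevisiae. Their log2 fold changes of 1.78 and 1.14 did not pass, nor did that of BIO5, which takes up a biotin precursor, at 1.51. The biotin transporter VHT1 had 458 and 664 CPM in S. bayanus, against 1291 and 177 CPM in S. cerevisiae (log2 fold change 0.20), while VHR1 was called lower. The list was above 0 in 8 of 10 genes.

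Peroxisomal genes spread widely. Of 42 tested genes, 4 were called higher, POT1, CRC1, PEX18 and MDH3, and 1 lower, TES1, with a median of 0.57. Over all genes 2.75% were called higher and 2.64% lower. MDH3, the peroxisomal malate dehydrogenase, had 990 and 1258 CPM in S. bayanus, against 178 and 216 CPM in S. cerevisiae (log2 fold change 2.51 ± 0.43 (SE), edgeR adjusted p = 0.046). TES1, an acyl-CoA thioesterase, had 41.3 and 54.1 CPM in S. bayanus, against 176 and 287 CPM in S. cerevisiae. Other genes of fat breakdown had ratios above 0 that did not pass. FOX2, the second enzyme of beta-oxidation, had 557 and 241 CPM in S. bayanus, against 20.4 and 56.7 CPM in S. cerevisiae (log2 fold change 3.39). POX1, the acyl-CoA oxidase, had 71.1 and 60 CPM in S. bayanus, against 5.84 and 22.7 CPM in S. cerevisiae (log2 fold change 2.40). CAT2, the carnitine acetyltransferase, had 566 and 344 CPM in S. bayanus, against 16.7 and 75.5 CPM in S. cerevisiae (log2 fold change 3.59). In all 3 the species did not overlap, and the S. cerevisiae libraries lay further apart in fold than those of S. bayanus. DCI1, an isomerase of the same organelle, had 2.11 and 0.283 CPM in S. bayanus, against 8.76 and 27 CPM in S. cerevisiae (log2 fold change -3.77). OAF1 and PIP2, whose products activate these genes together, had log2 fold changes of -1.03 and -0.93. ATG36, the receptor for the selective removal of peroxisomes, was called higher with 116 and 183 CPM in S. bayanus, against 16.7 and 11.2 CPM in S. cerevisiae, the only call among 29 autophagy genes.

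Mitochondrial ribosomal protein genes leaned towards S. bayanus. Of 58 mitochondrial ribosomal protein genes, 46 lay above 0, with a median log2 fold change of 0.97, beside 1818 of 3632 above 0 and a median of 0.00 over all genes tested. Of the 4 called, 3 were higher. MRPL22, of the large subunit, had 91.6 and 83.5 CPM in S. bayanus, against 11.3 and 13.2 CPM in S. cerevisiae. MRPL24, also of the large subunit, had 39.8 and 13.3 CPM in S. bayanus, against 4.59 and 2.58 CPM in S. cerevisiae. MRP2, of the small subunit, had 83.2 and 109 CPM in S. bayanus, against 16.7 and 26.4 CPM in S. cerevisiae. The 1 gene called lower was MRPS12, of the small subunit, with 34 and 79.9 CPM in S. bayanus, against 182 and 272 CPM in S. cerevisiae. On both days 39 of the 58 (67.2%) were higher in S. bayanus and 6 lower, where all genes gave 35.9% in each direction. An unadjusted p under 0.05 was reached by 22 higher and 2 lower, and in the fit over all 8 libraries 18 of 47 were called higher and 2 lower, against 15.2% and 14.0% of all genes in that fit. The list's median was 1.07 on day 1 and 0.78 on day 2.

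Among 32 genes of the respiratory chain and the ATP synthase, 4 were called higher and none lower, where all genes gave 2.75% and 2.64%. The list's median was 0.30, and 12 of its genes lay below 0. ATP20, a subunit of the ATP synthase, had 187 and 138 CPM in S. bayanus, against 24.2 and 26.7 CPM in S. cerevisiae (log2 fold change 2.65 ± 0.43 (SE), edgeR adjusted p = 0.046). COX7, a subunit of cytochrome c oxidase, had 107 and 96 CPM in S. bayanus, against 24.6 and 15.5 CPM in S. cerevisiae. COX13, another subunit of that enzyme, had 225 and 188 CPM in S. bayanus, against 34.6 and 47.9 CPM in S. cerevisiae. NDE2, an external NADH dehydrogenase, had 76.2 and 99.4 CPM in S. bayanus, against 14.6 and 21.7 CPM in S. cerevisiae, and in none of the 4 did the species overlap. QCR8, of the cytochrome bc1 complex, had 42.8 and 27.2 CPM in S. bayanus, against 148 and 238 CPM in S. cerevisiae (log2 fold change -2.46). STF2, a factor of the ATP synthase, had 10.6 and 3.12 CPM in S. bayanus, against 48.4 and 142 CPM in S. cerevisiae (log2 fold change -3.75). Neither of these passed, and an unadjusted p under 0.05 was reached by 11 members above 0 and 3 below. COQ5, a methyltransferase of ubiquinone synthesis, was called higher with 332 and 615 CPM in S. bayanus, against 96.8 and 120.5 CPM in S. cerevisiae, 1 of 37 assembly and ubiquinone genes. TOM6, of the import pore in the outer membrane, was called lower with 10.2 and 18.7 CPM in S. bayanus, against 258 and 200.4 CPM in S. cerevisiae (log2 fold change -4.02 ± 0.51 (SE), edgeR adjusted p = 0.0386), 1 of 30 import genes, whose median was 0.27.

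Ribosome biogenesis genes lay above 0 in 64 of 89 cases, with a median of 0.59. ENP1, needed to process the small subunit, was the 1 called gene, with 179 and 260 CPM in S. bayanus, against 33.8 and 36.2 CPM in S. cerevisiae (log2 fold change 2.62 ± 0.41 (SE), edgeR adjusted p = 0.046). On both days 52 members (58.4%) were higher in S. bayanus and 19 lower, where all genes gave 35.9% in each direction. An unadjusted p under 0.05 was reached by 24 higher and none lower, against 14.8% higher and 14.7% lower over all genes. In the fit over all 8 libraries 17 of 61 were called higher and none lower, against 15.2% and 14.0% of all genes in that fit. With DESeq2 18 of 89 were higher and none lower, against 9.44% of all genes in each direction. The letters GATGAG, part of a motif common before such genes, stood in 73 of 89 windows and in 19.7% of all windows, with medians of 0.48 with and 0.97 without a match. Many cytosolic ribosomal proteins are encoded by near-identical pairs that share reads, and they were not described as a group. RPL38, a ribosomal protein of the large subunit encoded by 1 gene, was called lower with 73.5 and 95.2 CPM in S. bayanus, against 372 and 372 CPM in S. cerevisiae (log2 fold change -2.15 ± 0.39 (SE), edgeR adjusted p = 0.046).

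The proteasome had the lowest median of the lists with at least 9 tested genes, -1.05, and 28 of its 32 tested genes lay below 0. RPN8, of the lid of the regulatory particle, had 17.5 and 11 CPM in S. bayanus, against 101 and 118 CPM in S. cerevisiae (log2 fold change -2.96 ± 0.48 (SE), edgeR adjusted p = 0.046). RPN11, the lid enzyme that removes ubiquitin, had 79.2 and 55.5 CPM in S. bayanus, against 299.6 and 482 CPM in S. cerevisiae (log2 fold change -2.52 ± 0.48 (SE), edgeR adjusted p = 0.0487). These and 2 genes of the catalytic core were called lower, and none was called higher, where 2.64% of all genes were called lower. PRE4, of the core, had 105 and 146 CPM in S. bayanus, against 371 and 789 CPM in S. cerevisiae (log2 fold change -2.13). PRE5, of the core, had 63.3 and 87.2 CPM in S. bayanus, against 219 and 397 CPM in S. cerevisiae (log2 fold change -1.99). On both days 23 members (71.9%) were lower in S. bayanus and 2 higher, where all genes gave 35.9% in each direction. An unadjusted p under 0.05 was reached by 13 lower and 1 higher, against 14.7% lower and 14.8% higher over all genes. RPT4, an ATPase of the regulatory particle, lay highest at 1.22 with 403 and 187 CPM in S. bayanus, against 119 and 116 CPM in S. cerevisiae. RPN4, the gene of the factor that activates the proteasome genes, had 356 and 83.8 CPM in S. bayanus, against 136 and 231 CPM in S. cerevisiae (log2 fold change -0.04), with the S. bayanus libraries on either side of those of S. cerevisiae. In the fit over all 8 libraries 9 of 24 were called lower and 1 higher, against 14.0% and 15.2% of all genes in that fit.

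Rpn4 binds the letters GGTGGCAAA, which the windows of 1.23% of all genes hold on either strand. Of the 32 proteasome genes 23 hold a match, with a median of -1.08, and the 9 without one had a median of -0.71. Among the 4 called genes, RPN11 and PRE4 hold a match, and RPN8 and PRE5 do not hold these exact letters. The windows of the called genes with a match lie at chrVI:153033-153332 on the plus strand for RPN11 and chrVI:249927-250226 on the minus strand for PRE4, both in R64, and capitals mark the match.
RPN11: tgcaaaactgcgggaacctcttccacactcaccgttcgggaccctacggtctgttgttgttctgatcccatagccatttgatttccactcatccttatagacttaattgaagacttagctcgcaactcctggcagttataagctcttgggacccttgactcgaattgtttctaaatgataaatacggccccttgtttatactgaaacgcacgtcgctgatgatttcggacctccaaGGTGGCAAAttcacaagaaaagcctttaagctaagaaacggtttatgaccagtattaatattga
PRE4: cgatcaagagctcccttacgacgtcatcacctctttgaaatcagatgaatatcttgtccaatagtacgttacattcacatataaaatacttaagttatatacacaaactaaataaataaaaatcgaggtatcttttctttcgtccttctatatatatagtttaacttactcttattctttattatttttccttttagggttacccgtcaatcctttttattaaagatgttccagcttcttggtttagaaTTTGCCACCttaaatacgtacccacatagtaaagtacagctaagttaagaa

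Lipid synthesis genes leaned low in S. bayanus. Of 31 genes of fatty acid and phospholipid synthesis, 22 lay below 0, the median was -0.77 and 2 were called lower, none higher. INO4, 1 partner of the Ino2-Ino4 activator, had 7 and 3 reads in S. bayanus, against 38 and 99 reads in S. cerevisiae (log2 fold change -3.42 ± 0.66 (SE), edgeR adjusted p = 0.0487). OPI1, the repressor that opposes it, had 14.8 and 25.2 CPM in S. bayanus, against 239.9 and 124 CPM in S. cerevisiae (log2 fold change -3.15 ± 0.57 (SE), edgeR adjusted p = 0.046). INO1, the enzyme of inositol synthesis, had 1619 and 4288 CPM in S. bayanus, against 31340 and 20270 CPM in S. cerevisiae (log2 fold change -3.26). Like the next genes it did not pass the test, though its S. bayanus libraries lay below both of S. cerevisiae. OPI3, a methyltransferase of phosphatidylcholine synthesis, had 498 and 1070 CPM in S. bayanus, against 5576 and 6194 CPM in S. cerevisiae (log2 fold change -3.01). ITR1, the inositol transporter, had 1296 and 3283 CPM in S. bayanus, against 10220 and 7483 CPM in S. cerevisiae (log2 fold change -2.08). FAS2, a fatty acid synthase subunit, had 4598 and 9986 CPM in S. bayanus, against 33020 and 30710 CPM in S. cerevisiae (log2 fold change -2.23). An unadjusted p under 0.05 was reached by 11 members below 0 and none above, against 14.7% lower and 14.8% higher over all genes. The medians of the days were -1.29 and -0.39.

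The letters CATGTG, the core of the Ino2-Ino4 site, stood in 8.55% of all windows and in 14 of the 31, where the median was -1.35 with and -0.29 without a match. The windows of INO4, the called gene with a match, and INO1, the member with the next lowest ratio, are shown with the matches in capitals, at chrXV:111947-112246 for INO4 and chrX:135994-136293 for INO1, both on the minus strand of R64. INO4 has 1 match and INO1 has 2.
INO4: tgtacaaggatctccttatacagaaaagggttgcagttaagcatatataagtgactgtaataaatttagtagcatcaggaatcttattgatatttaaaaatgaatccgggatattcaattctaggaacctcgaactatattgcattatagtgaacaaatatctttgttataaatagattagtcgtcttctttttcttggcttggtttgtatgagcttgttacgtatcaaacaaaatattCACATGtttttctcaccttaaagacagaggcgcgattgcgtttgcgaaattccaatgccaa
INO1: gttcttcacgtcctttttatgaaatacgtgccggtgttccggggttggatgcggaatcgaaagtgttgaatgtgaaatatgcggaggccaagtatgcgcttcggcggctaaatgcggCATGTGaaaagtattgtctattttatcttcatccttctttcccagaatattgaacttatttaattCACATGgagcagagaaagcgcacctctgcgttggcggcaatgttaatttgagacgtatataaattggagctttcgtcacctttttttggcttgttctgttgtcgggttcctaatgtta

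Sphingolipid and vesicle coat genes had medians below 0. LCB1, a subunit of serine palmitoyltransferase, had 62.4 and 238 CPM in S. bayanus, against 588 and 909 CPM in S. cerevisiae (log2 fold change -2.58). TSC10, the next enzyme, had 41.6 and 78.7 CPM in S. bayanus, against 269.6 and 379 CPM in S. cerevisiae (log2 fold change -2.48). Both were called lower, 2 of 21 tested, with a median of -0.41. TSC3, the small activator of serine palmitoyltransferase, had 12.3 and 25.8 CPM in S. bayanus, against 67.2 and 55.5 CPM in S. cerevisiae and did not pass (log2 fold change -1.76 ± 0.52 (SE), edgeR adjusted p = 0.0983). SEC24, which selects cargo for the vesicles that leave the endoplasmic reticulum, was called lower with 144 and 344 CPM in S. bayanus, against 3106 and 2289 CPM in S. cerevisiae (log2 fold change -3.58 ± 0.67 (SE), edgeR adjusted p = 0.0487). It was the 1 call among 16 coat genes, of which 15 lay below 0 with a median of -0.90. Its partner in the coat, SEC23, had 424 and 889.7 CPM in S. bayanus, against 1367 and 1115 CPM in S. cerevisiae (log2 fold change -1.01), and it did not pass. OST3, of the enzyme that attaches sugar chains, was called lower with 42.8 and 88.3 CPM in S. bayanus, against 504 and 411 CPM in S. cerevisiae, 1 of 23 genes of folding in the endoplasmic reticulum. ERG28, a scaffold of ergosterol synthesis, was called higher with 491 and 952 CPM in S. bayanus, against 30.5 and 60.3 CPM in S. cerevisiae (log2 fold change 3.99 ± 0.43 (SE), edgeR adjusted p = 0.0289), 1 of 28 ergosterol genes.

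**Figure D3:**
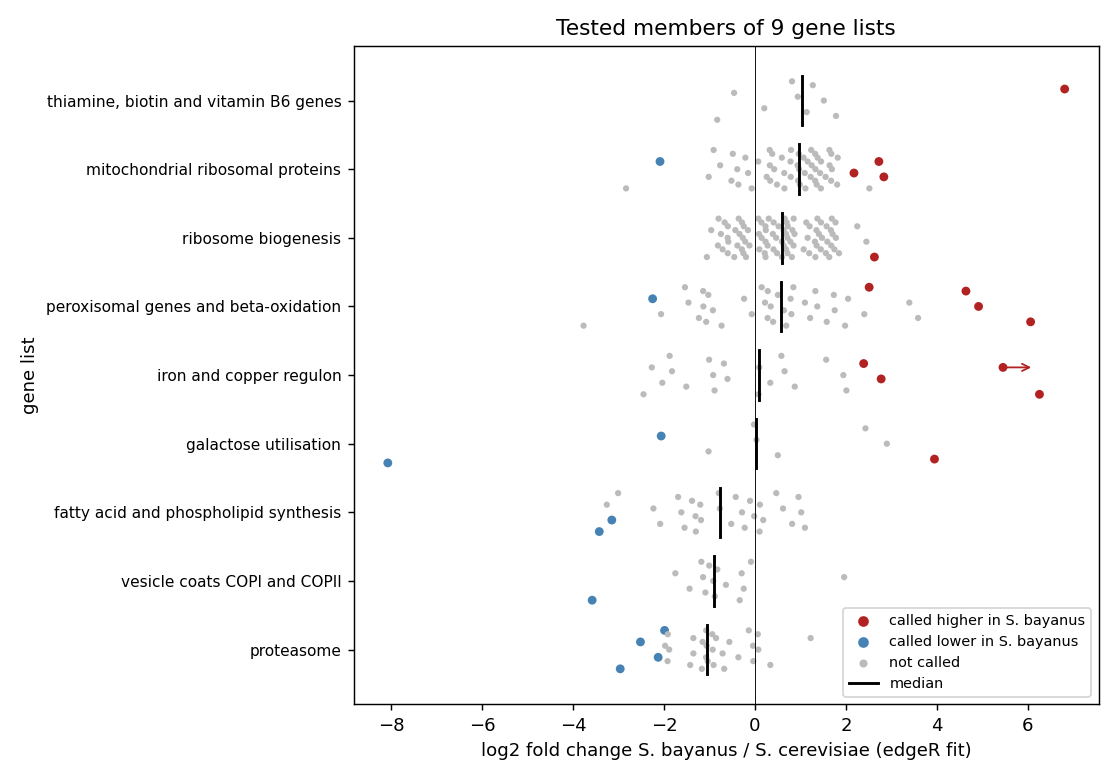
Log2 fold change of each tested member of 9 gene lists (x axis, S. bayanus over S. cerevisiae), 1 list per line and 1 point per gene. Red points are called higher, blue points lower and grey points not called, black bars are list medians, and the point with an arrow is FRE5 at its lower bound. Proteasome members crowd to the left of 0 with a median of -1.05, and mitochondrial ribosomal proteins to the right with a median of 0.97.

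Genes of nitrogen use gave calls in both directions. AGP1 was the 1 gene called higher of 29, and OPT2, DIP5 and DAL3 were called lower. DIP5, the permease of glutamate and aspartate, had 5.42 and 6.51 CPM in S. bayanus, against 68.8 and 61.5 CPM in S. cerevisiae (log2 fold change -3.44 ± 0.49 (SE), edgeR adjusted p = 0.0447). DAL3, an enzyme of allantoin breakdown, had 2.41 and 3.96 CPM in S. bayanus, against 59.7 and 11.8 CPM in S. cerevisiae. Other allantoin genes lay below 0 without passing, with log2 fold changes of -3.10 for DAL2, -2.31 for DAL7 and -2.11 for the permease gene DAL5. GAP1, the general amino acid permease, had 339.9 and 553 CPM in S. bayanus, against 3948 and 1378 CPM in S. cerevisiae (log2 fold change -2.43). PUT4, the proline permease, had 7.23 and 12.5 CPM in S. bayanus, against 91.8 and 46.8 CPM in S. cerevisiae (log2 fold change -2.76). These 2 did not pass, though the species did not overlap. The days differed: the list's median was -1.27 on day 1 and 0.09 on day 2. For DAL80, a repressor of these genes, the levels were 1.51 and 2.27 CPM in S. bayanus, against 32.1 and 4.55 CPM in S. cerevisiae, and it did not pass (edgeR adjusted p = 0.129).

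Amino acid and nucleotide synthesis held few calls. ARO9, an aromatic aminotransferase, was called higher with 27.1 and 31.4 CPM in S. bayanus, against 2.92 and 5 CPM in S. cerevisiae. TRP3, of tryptophan synthesis, was called lower with 84.7 and 143 CPM in S. bayanus, against 719 and 691 CPM in S. cerevisiae. ARO3, the first enzyme of the aromatic pathway, was called lower with 80.4 and 167 CPM in S. bayanus, against 427 and 737 CPM in S. cerevisiae. These are the 3 calls of 14 aromatic genes. STR2, which makes cystathionine, was the 1 call among 21 sulfur genes, with 160.3 and 160.3 CPM in S. bayanus, against 25.9 and 35.3 CPM in S. cerevisiae. The sulfur list had 18 genes above 0 and a median of 0.795, with day medians of -0.22 and 1.78, so that its lean rested on day 2. Matches to TCACGTG stood in 10 of 21 sulfur genes and 3.08% of all windows, with medians of 1.16 with and 0.52 without. ADE8, a transformylase of purine synthesis, was the 1 call among 15 purine genes, with 144 and 263 CPM in S. bayanus, against 26.7 and 24.6 CPM in S. cerevisiae, and the list's day medians of -0.20 and 1.27 differed likewise. By edgeR no gene was called among histidine (7 tested), lysine (5), arginine (9), branched-chain (9), serine and glycine (13), glutamate, proline, threonine and asparagine (13) or pyrimidine (10) synthesis genes, of which 1 to 5 per list reached an unadjusted p under 0.05 and 1 to 3 per list passed with DESeq2.

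Carbon metabolism held single calls. ICL1, the isocitrate lyase of the glyoxylate cycle, was called lower with 3.01 and 3.96 CPM in S. bayanus, against 43.4 and 80.3 CPM in S. cerevisiae (log2 fold change -4.10 ± 0.52 (SE), edgeR adjusted p = 0.0386), while SFC1, of the same list, was higher. The list of gluconeogenesis and glyoxylate genes had a median of -0.54, the same with SFC1 at its bound. The days differed, with medians of 0.24 and -1.57. ALD4, the mitochondrial aldehyde dehydrogenase, was called lower with 126 and 272 CPM in S. bayanus, against 781 and 1078 CPM in S. cerevisiae, 1 of 15 glycolysis and fermentation genes, of which 12 lay below 0 with a median of -0.82 and day medians of -1.30 and -0.15. GUT1, the glycerol kinase, was called lower with 61.5 and 112 CPM in S. bayanus, against 252 and 411 CPM in S. cerevisiae. SOL2, a member of a family of lactonases of the pentose phosphate pathway, was called higher with 223 and 327 CPM in S. bayanus, against 49.6 and 74.6 CPM in S. cerevisiae. By edgeR no hexose transporter or glucose signalling gene of 17 was called, 3 reached an unadjusted p under 0.05, and DESeq2 called 1 higher and 1 lower. None of 14 trehalose and glycogen genes was called by edgeR or DESeq2, and none had an unadjusted p under 0.05.

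Stress genes differed one by one. HSP26, a small heat shock protein, had 1312 and 157 CPM in S. bayanus, against 63.8 and 15 CPM in S. cerevisiae (log2 fold change 3.88 ± 0.49 (SE), edgeR adjusted p = 0.0386), with a wide gap between the S. bayanus libraries. HSP12, a membrane protein induced by stress, had 1179 and 2462 CPM in S. bayanus, against 187 and 305 CPM in S. cerevisiae (log2 fold change 2.84 ± 0.48 (SE), edgeR adjusted p = 0.046). They were the 2 calls of 34 heat shock genes, whose median was 0.07. DDR2, a gene induced by DNA damage and other stress, had 1 and 4 reads in S. bayanus, against 18 and 95 reads in S. cerevisiae. DDR2 and YHB1 were the 2 calls of 24 general stress genes, both lower, although the list's median was 0.37.

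Genes that mark other cell types than vegetative diploids were checked. Of 10 tested haploid-specific genes, FAR1 was called higher and RME1 lower, and the measured genes of the list summed to 307 and 286 CPM in S. bayanus and to 357 and 361 CPM in S. cerevisiae. For RME1, the study cites a known binding site variant that is found only in S. cerevisiae and raises its expression. STE4, the beta subunit of the pheromone G protein, had 7.53 and 3.12 CPM in S. bayanus, against 28.4 and 33.6 CPM in S. cerevisiae. GPA1, the gene of its alpha subunit, had 11.8 and 5.95 CPM in S. bayanus, against 3.34 and 4.25 CPM in S. cerevisiae. Neither passed, and the species did not overlap in either. The 3 measured a-specific genes summed to 29.5 and 26.6 CPM in S. bayanus and 46.3 and 71.1 CPM in S. cerevisiae. The 2 measured alpha-specific genes summed to 11.8 and 19.5 CPM in S. bayanus and 31.7 and 42.5 CPM in S. cerevisiae. The 11 pheromone-induced genes summed to 238 and 182 CPM in S. bayanus and 374 and 223 CPM in S. cerevisiae, with no edgeR call among 8 tested, 2 of them with an unadjusted p under 0.05, and 1 DESeq2 call, higher. Of 24 tested meiosis and sporulation genes, SPO75 and DIT2, which helps to make the spore wall, were called higher. DIT2 had 21.1 and 26.1 CPM in S. bayanus, against 2.5 and 2.73 CPM in S. cerevisiae, and the 35 measured genes summed to 566 and 472 CPM in S. bayanus and 308 and 435 CPM in S. cerevisiae. What part such cells have in the other results was not tested.

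Regulators of growth and form gave scattered calls. CLN3, the first G1 cyclin, was called lower with 28.9 and 96.8 CPM in S. bayanus, against 278 and 556 CPM in S. cerevisiae (log2 fold change -2.89 ± 0.43 (SE), edgeR adjusted p = 0.046). HHO1, the linker histone, was called lower with 5.12 and 8.21 CPM in S. bayanus, against 80.5 and 67.5 CPM in S. cerevisiae. HTZ1, a variant of H2A and the other histone gene measured, had 6.63 and 15.6 CPM in S. bayanus, against 29.2 and 53.1 CPM in S. cerevisiae and did not pass. BUD4, which marks bud sites, was called higher with 222 and 54.9 CPM in S. bayanus, against 47.6 and 10.2 CPM in S. cerevisiae. Both species had a higher BUD4 level on day 1 than on day 2, and the species differed within each day. BUD8, which marks the far pole of the cell, was called higher with 228 and 168 CPM in S. bayanus, against 42.6 and 30.8 CPM in S. cerevisiae. CUS1, of the spliceosome, was called higher with 40.4 and 21.5 CPM in S. bayanus, against 7.51 and 1.97 CPM in S. cerevisiae. CWC24, of the spliceosome, was called higher with 44 and 19.8 CPM in S. bayanus, against 3.34 and 2.58 CPM in S. cerevisiae, and these were the 2 calls of 53 tested. PSF2, of the replication complex GINS, was called lower with 9.34 and 8.49 CPM in S. bayanus, against 66.3 and 38.7 CPM in S. cerevisiae, 1 of 42 replication and repair genes. DSE1, which acts in daughter cells, was called lower with 168 and 114 CPM in S. bayanus, against 918 and 485 CPM in S. cerevisiae. FLO8, an activator of adhesion genes, was called lower with 22.3 and 10.5 CPM in S. bayanus, against 95.5 and 62.5 CPM in S. cerevisiae. NCA3, of the SUN family, was called higher with 162 and 205 CPM in S. bayanus, against 8.35 and 25.2 CPM in S. cerevisiae.

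Lists without an edgeR call include tRNA synthetases (15 tested, median -0.70), RNA polymerase II and Mediator (27, median -0.40), RNA polymerase I and III (25, median -0.15), translation factors (24, median -0.10), nucleoporins (25, median -0.32) and vacuolar ATPase and proteases (19, median -0.55), in which 1 to 6 genes each reached an unadjusted p under 0.05 and DESeq2 called 1 to 4 each. In all, 38 of the 57 lists held at least 1 called gene, and 73 of the 196 called genes belonged to a list, as did 1225 of the 3723 measured genes.

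**Figure D4:**
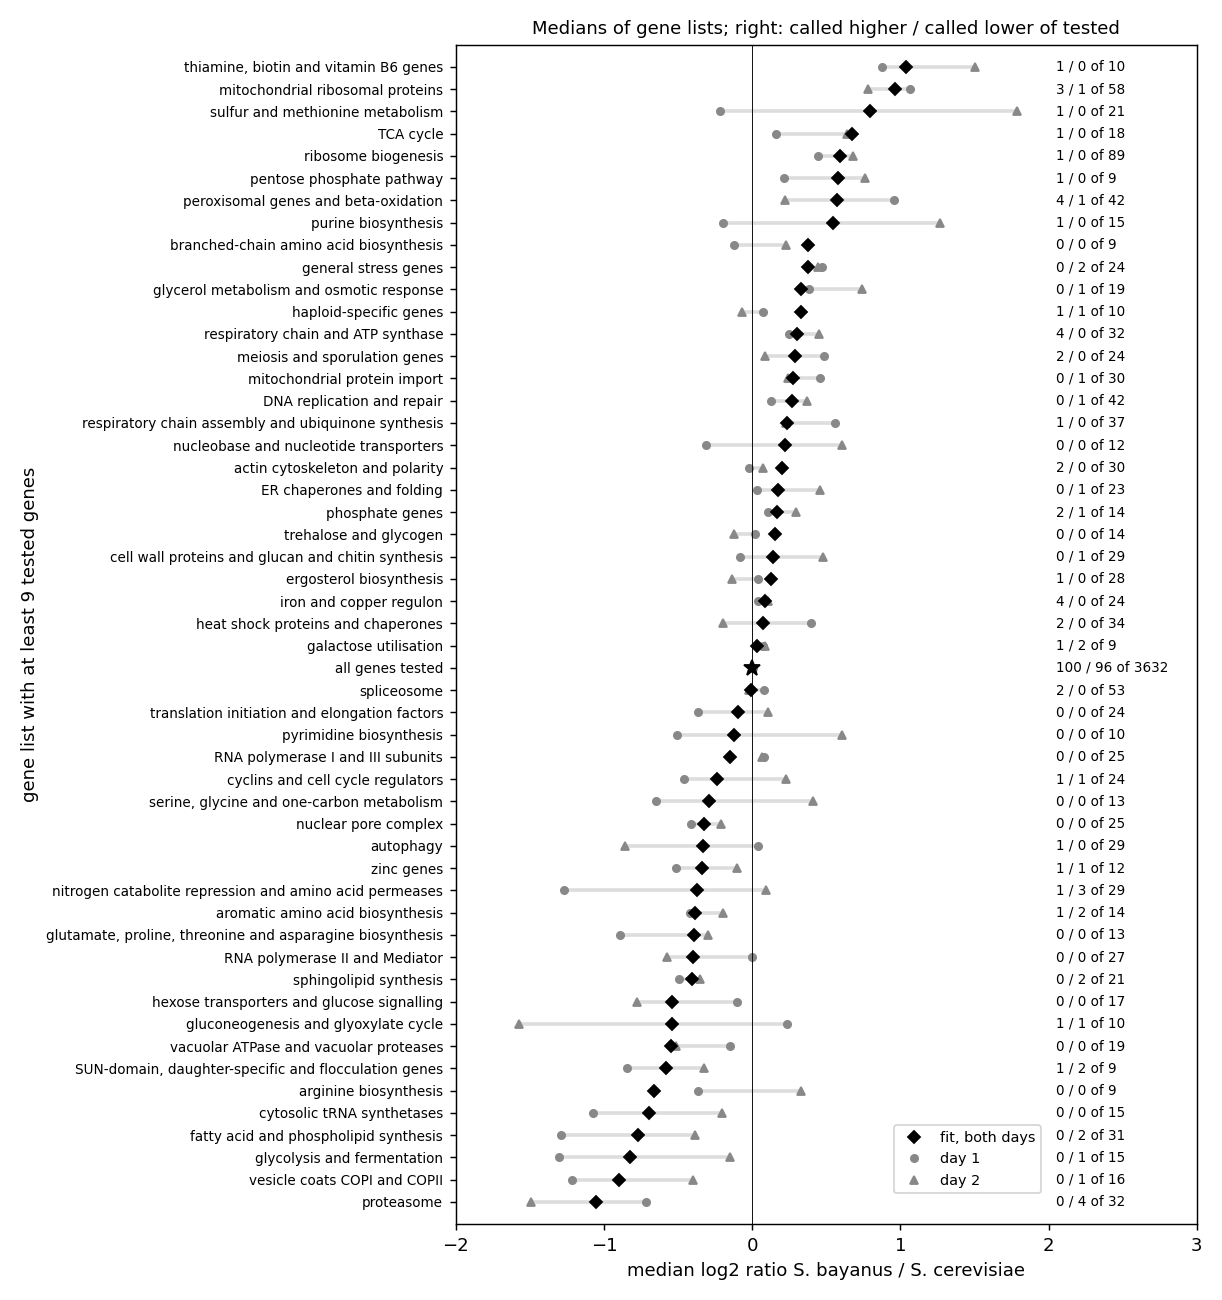
Median log2 ratio (x axis, S. bayanus over S. cerevisiae) of every list with at least 9 tested genes, with all genes tested as a star. Diamonds are the fit over both days, circles day 1 and triangles day 2, and the numbers on the right are genes called higher, called lower and tested. The medians run from -1.05 for the proteasome to 1.04 for vitamin genes, and the days of some lists, such as sulfur genes at -0.22 and 1.78, lie on opposite sides of 0.

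Called genes with the most reads were PHO84, YPR127W, HSP12, FEN2 and MDH3 among those higher and SEC24, LCB1, TDA1, RCN2 and ALD4 among those lower. YPR127W had 2856 and 1409 CPM in S. bayanus, against 202 and 188 CPM in S. cerevisiae (log2 fold change 3.36 ± 0.55 (SE), edgeR adjusted p = 0.046). FEN2, the transporter of pantothenate, had 660.4 and 1644 CPM in S. bayanus, against 122 and 202 CPM in S. cerevisiae (log2 fold change 2.73 ± 0.46 (SE), edgeR adjusted p = 0.046). TDA1, a protein kinase, had 223 and 163 CPM in S. bayanus, against 1099 and 1330 CPM in S. cerevisiae. RCN2, a regulator of calcineurin, had 160 and 133 CPM in S. bayanus, against 1024 and 1135 CPM in S. cerevisiae. In TDA1 and RCN2 the libraries of 1 species lay close together, whereas FEN2 and YPR127W varied between the S. bayanus libraries.

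Genes that the study named included called and uncalled cases. Genes for the study's qPCR were chosen partly for large and partly for small fold changes, so calls among them are no independent evidence. That qPCR used other cultures, and its values were not re-analysed here. In it, YHB1, DAL80 and VAN1 were lower in every S. bayanus culture than in every S. cerevisiae culture. NCE102 was higher in every S. bayanus culture. The species overlapped in VHR1, IPP1, MCD4, SMK1 and ZIM17. RME1, YHB1, SNO1 and VHR1 were called here. The pyrophosphatase gene IPP1 had 2553 and 2712 CPM in S. bayanus, against 1684 and 1374 CPM in S. cerevisiae (log2 fold change 0.79 ± 0.54 (SE), edgeR adjusted p = 0.369). VAN1, a mannosyltransferase subunit, had 153 and 233 CPM in S. bayanus, against 148 and 206 CPM in S. cerevisiae (log2 fold change 0.11 ± 0.37 (SE), edgeR adjusted p = 0.861). ZIM17, a mitochondrial chaperone factor, had 27.1 and 27.2 CPM in S. bayanus, against 15 and 10.2 CPM in S. cerevisiae and did not pass. NCE102, a membrane protein of the eisosome, had 263 and 213 CPM in S. bayanus, against 650.1 and 2176 CPM in S. cerevisiae (log2 fold change -2.33 ± 0.66 (SE), edgeR adjusted p = 0.0873), with both S. bayanus libraries below both of S. cerevisiae. That direction is opposite to the qPCR of NCE102. SMK1, a kinase of spore formation, had 15 and 7 reads in S. bayanus, against 3 and 12 reads in S. cerevisiae. MCD4, of anchor synthesis, had 798 and 2251 CPM in S. bayanus, against 2182 and 345 CPM in S. cerevisiae, and its ratio changed sign between days, -1.45 on day 1 and 2.71 on day 2. YDL124W did not meet the limits on genes and was not analysed here. Library preparation preserved strand, but whether reads were counted by strand is not given in the sources used here, so a transcript on the other strand may share the count of a gene. The study left SNO1 out of its qPCR results because antisense transcription of that gene appeared much heavier in S. cerevisiae. SNO1 had 4 and 8 reads in S. cerevisiae here, and reads of the other strand were not analysed.

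Calls were spread over levels and were fewer among long genes. In 4 equal classes by average level, 4.19, 5.73, 6.72 and 4.96% of genes were called, in order from low to high. In 4 equal classes by coding length, 7.82% of the shortest genes, of 153 to 825 bases, were called, then 6.06, 5.40 and, for genes of 1902 to 9807 bases, 2.31%. The median log2 fold change was 0.08, 0.09, -0.06 and -0.07 in the same order of length, and 0.15, 0.12, 0.00 and -0.26 in the order of level.

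Neighbours on the chromosome mostly went their own ways. Of 2717 pairs of tested genes that follow each other among the measured genes less than 2000 bases apart, 1375 (50.6%) moved in the same direction. Divergent pairs did so in 50.8% of 679 cases, tandem pairs in 51.8% of 1298 and convergent pairs in 48.2% of 740. Genes that were not measured can lie between the members of a pair, so a divergent pair need not share the space before both genes. Both genes were called in 9 pairs, in the same direction in 8: KTI11 and AST1, YDL086W and NDE2, ATG36 and GON7, and FIT2 and FRE5 higher, and NPL3 and YDR433W, SPC25 and SBH2, CSR1 and CTF3, and DIP5 and YPL264C lower. NPL3 and YDR433W overlap by 428 bases on the same strand, which is most of YDR433W, and reads in the overlap cannot be assigned to 1 of the genes. In the last pair, IZH1 was called lower and MZM1, which starts 342 bases after it ends on the same strand, higher, with 51.2 and 81.8 CPM in S. bayanus, against 10 and 11.5 CPM in S. cerevisiae.

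The level of called genes was also read in the other 2 species, S. paradoxus and S. mikatae. Levels here are CPM of the reads on genes measured in all 4 species, without TMM factors, and are values with no test. Of 74 genes called higher that were measured in all 4 species, S. paradoxus lay nearer to S. cerevisiae than to S. bayanus in 54 (73.0%) and S. mikatae in 39 (52.7%), on a log2 scale with 0.5 added. Of 77 genes called lower, S. paradoxus lay nearer to S. cerevisiae in 33 (42.9%) and S. mikatae in 41 (53.2%). Over all 2682 genes tested here and measured in all 4 species the shares were 57.3% for S. paradoxus and 53.8% for S. mikatae.

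In some genes S. bayanus stood alone. GAL7 had 132 and 97.9 CPM in S. bayanus, 2.4 and 0.994 CPM in S. mikatae, 3.38 and 1.22 CPM in S. paradoxus and 1.81 and 10.7 CPM in S. cerevisiae. SEC24 had 260.3 and 459 CPM in S. bayanus, 3646 and 3312 CPM in S. mikatae, 1769 and 2179 CPM in S. paradoxus and 3370 and 2702 CPM in S. cerevisiae. GAL80 had 2.72 and 0.756 CPM in S. bayanus, 63.2 and 118 CPM in S. mikatae, 47.6 and 41.5 CPM in S. paradoxus and 244 and 419 CPM in S. cerevisiae. In SEC24 and GAL80 the other three species all lay above both S. bayanus libraries, and in GAL7 all lay below.

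In other genes S. cerevisiae stood alone. SNO1 had 190.2 and 282 CPM in S. bayanus, 59.4 and 48.5 CPM in S. mikatae, 116 and 149 CPM in S. paradoxus and 1.81 and 1.43 CPM in S. cerevisiae. AGP1 had 362 and 541 CPM in S. bayanus, 189.5 and 347 CPM in S. mikatae, 345 and 373 CPM in S. paradoxus and 13.1 and 14.1 CPM in S. cerevisiae. YHB1 had 3.8 and 3.4 CPM in S. bayanus, 8.26 and 9.2 CPM in S. mikatae, 16.5 and 7.81 CPM in S. paradoxus and 254 and 204 CPM in S. cerevisiae. In these 3 genes the other three species lay on 1 side of S. cerevisiae, although S. mikatae had less SNO1 than S. bayanus. VHR1 had 20.1 and 51.4 CPM in S. bayanus, 40.5 and 137 CPM in S. mikatae, 49.9 and 54.4 CPM in S. paradoxus and 456 and 1145 CPM in S. cerevisiae. RME1 had 3.26 and 0 CPM in S. bayanus and 1.6 and 0.994 CPM in S. mikatae. It had 4.5 and 2.685 CPM in S. paradoxus and 62.9 and 87.7 CPM in S. cerevisiae. MDH3 set S. bayanus and S. mikatae above the others, with 1786 and 1679 CPM in S. bayanus, 812 and 965 CPM in S. mikatae, 183 and 203 CPM in S. paradoxus and 193 and 254 CPM in S. cerevisiae.

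**Figure D5:**
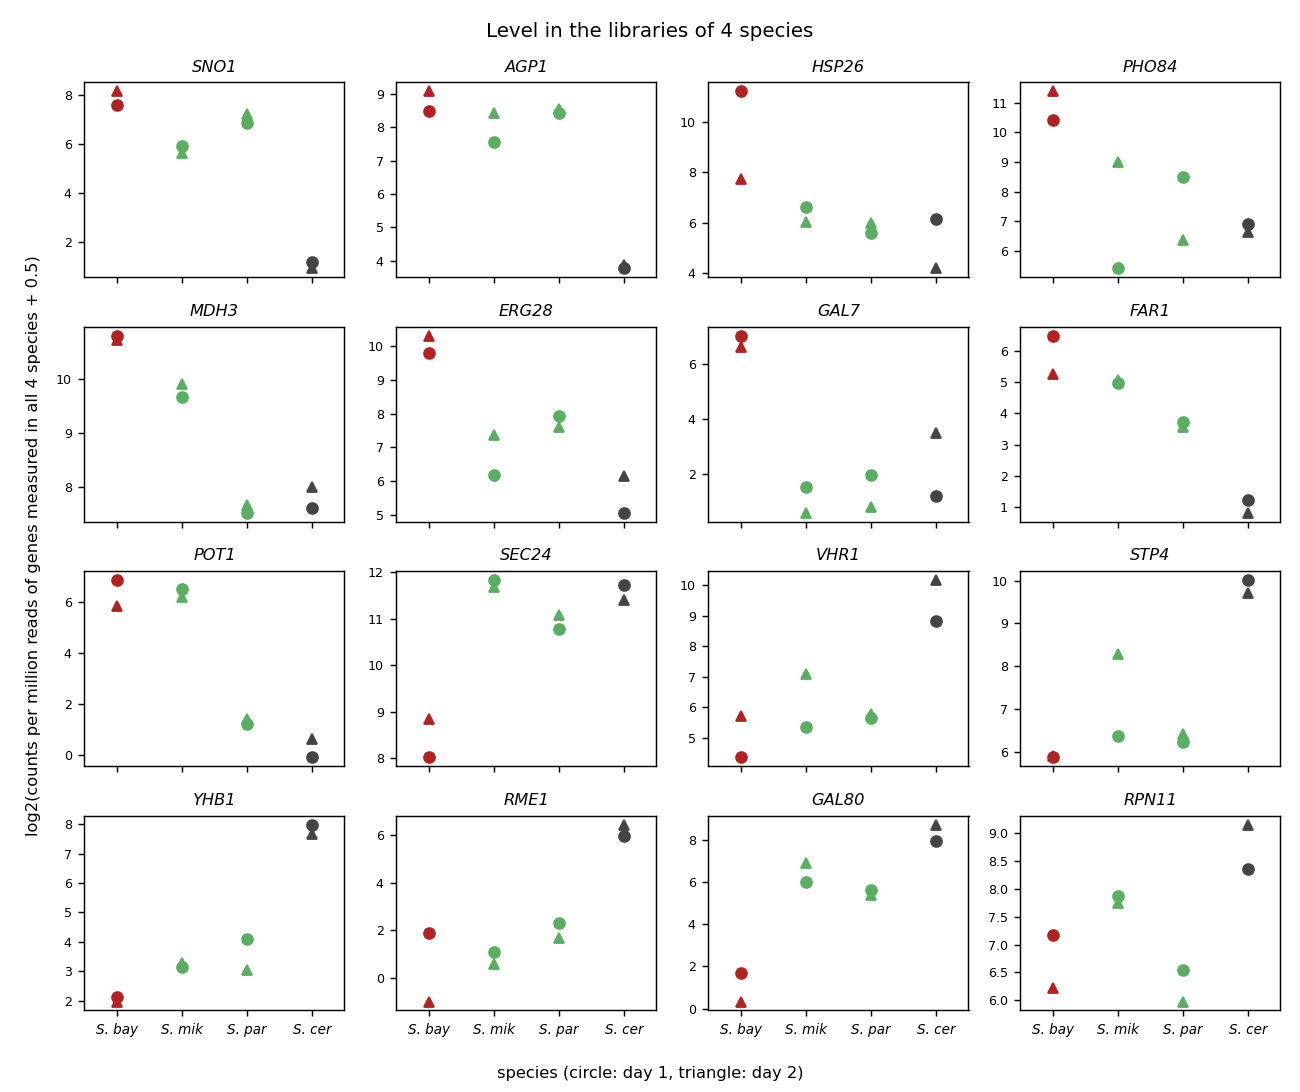
Level of 16 called genes in the 8 libraries as log2 of CPM plus 0.5 (y axis), where CPM are per 1000000 reads of genes measured in all 4 species. Species run from S. bayanus on the left over S. mikatae and S. paradoxus to S. cerevisiae, circles are day 1 and triangles day 2. SNO1, AGP1, YHB1, VHR1 and RME1 set S. cerevisiae apart from the other three species, and SEC24, GAL80 and GAL7 set S. bayanus apart.

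Few calls were made under every alternative. Under 14 alternatives of scaling, filter, test, length and read choice, 29 of the 196 called genes, 15 higher and 14 lower, were called each time they were tested. Of these, 24 were also called without each library in turn, in the fits of species alone that take the spread from the species with 2 libraries. Of these 24 genes, 14 were higher in S. bayanus, SNO1, SPO75, CRS5, POT1, FAR1, PEX18, AGP1, POA1, YPL113C, ERG28, ZPS1, CMC1, ADK2 and BOP2. The 10 lower genes were GAL80, ECM13, YHB1, LIH1, ECM15, VHR1, SGE1, STP4, TOM6 and XPT1. The alternatives reuse the same cultures. In the study's qPCR of other cultures, YHB1 was lower in every S. bayanus culture, but the species overlapped in VHR1. XPT1, a phosphoribosyltransferase that salvages xanthine, had 9.94 and 11 CPM in S. bayanus, against 183 and 147 CPM in S. cerevisiae (log2 fold change -3.96 ± 0.45 (SE), edgeR adjusted p = 0.0316). CMC1, of cytochrome c oxidase assembly, had 135 and 131 CPM in S. bayanus, against 10 and 7.73 CPM in S. cerevisiae (log2 fold change 3.92 ± 0.45 (SE), edgeR adjusted p = 0.0319).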

How the data were processed

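Cultures of S. bayanus and S. cerevisiae were sequenced as strand-specific 35-base SOLiD reads after removal of ribosomal RNA. Per the Methods of the study, the authors aligned reads to the genome of each species with MOSAIK and counted them per annotated gene, and the deposited tables give raw counts of uniquely aligned reads and of all aligned reads. S. cerevisiae coordinates are those of build sacCer2. Unique reads over all listed genes totalled 9368983 and 11785499 in S. bayanus and 4986745 and 12152480 in S. cerevisiae.

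Unique counts of the measured genes were fitted with edgeR 4.0.16 in R 4.3.3 (quasi-likelihood, TMM factors, terms for day and species, at least 10 counts in at least 2 libraries, Benjamini-Hochberg adjustment over all tested genes, threshold 0.05). The replicate number is a block because the supplement of the study states that replicate 1 and replicate 2 samples were prepared on different days. Same-numbered libraries of the species deviated together with a correlation of 0.194, and of 0.167 to 0.491 over the 6 pairs of species. The cultures of a species were independent. With the day in the model, the spread of a gene behind its p-value is the change of the species difference between days. That spread was moderated with information shared across all tested genes. The common dispersion was 0.128, and 4.77 prior degrees of freedom joined the 1 residual degree. Counts were simulated for 3618 genes with the levels and dispersions fitted to these libraries, and were tested the same way. In them 3419 genes were unchanged, 99 changed 2-fold and 100 changed 4-fold. The test called 0.263% of unchanged genes, 7.07% of genes changed 2-fold and 74% of genes changed 4-fold. The share of changed genes in the real libraries is not known, so these rates hold for the simulated counts only. Alternatives used DESeq2 1.42.0 and the chi-square of the study, rebuilt with its p threshold of 0.01, among others. The rebuilt chi-square called a gene only where both days moved the same way, a condition that the study does not state.

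Of the measured genes 91 were not tested, 88 of them with at least 1 read and at most 121 reads in any library. Members and gene lists were chosen with earlier results of these data known. The rule for named genes took the 15 highest and 15 lowest called genes, up to 4 called genes of each list, genes named by the study, the 5 called genes with the most reads in each direction, and genes without a read in 1 species and at least 10 in both libraries of the other, which gave 99 genes. Members described without a call were chosen after their values were seen, as were genes shown for the other species and pairs of neighbours. Upstream windows came from the RefSeq R64 genome, matched by locus name for 3702 of 3723 genes. Bounds and intervals (95%, exact) used a floor of 3 counts over both libraries of a species.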

Additional observations from a re-analysis of the deposited data

How the results depend on the processing

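Against 100 higher and 96 lower calls, library totals gave 462 and 173, a minimum of 30 counts in both libraries of a species 196 and 192, DESeq2 343 and 343, a fit of all 8 libraries on 2707 genes 412 and 380, all aligned reads 165 and 164, and the rebuilt chi-square 400 and 475. Fewer were left with the length ratio at 95 to 105%, 19 and 13 of 3504 genes, and with a unique share of 0.98, 72 higher and 56 lower of 3426 genes. Without the replicate block, 239 were higher and 259 lower, among them all 196. Leaving out 1 library gave 38 to 246 higher and 13 to 266 lower, with the lone library assumed to vary like those of the other species. In the fit of all 8 libraries, leaving out 1 library was added after seeing the data, and the calls were 283 and 251 without S. bayanus replicate 1, 284 and 269 without S. bayanus replicate 2, 290 and 295 without S. cerevisiae replicate 1, and 216 and 261 without S. cerevisiae replicate 2. The cause of these shifts was not tested. Other scalings, no filter, the legacy and robust tests and the length offset stayed within 1.5 times. Of 4220 results for 204 genes, the 196 called and 8 others named by the study, 3566 stayed on their side of the threshold, 630 results of called genes lost the call, 24 results of the 8 others gained one, and no called value changed sign, whereas uncalled MCD4 and VAN1 did without some libraries.

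With 2 cultures a species, the smallest called change was 1.96 on the log2 scale, and calls crowd at the threshold. Each species is 1 strain, so strain and species cannot be told apart. Gene models of S. bayanus were annotated by orthology to S. cerevisiae, per the supplement of the study. Their part in the counts was not tested. The drop under the narrower length limits does not measure it, because most calls lost there were of genes still tested.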
